A study of Rattus norvegicus with 26 samples.

Results

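The 7 genes described here were Hmgcs1, Idi1, Fdft1, Sqle, Cyp51, Dhcr7 and Insig1, taken by gene name from the 32883 genes of a rat spinal cord count table. The first 6 encode enzymes of cholesterol synthesis. Insig1 encodes no enzyme of the pathway but a membrane protein that restrains it, so the set is called cholesterol synthesis genes below. Each name matched 1 row of the table, and all 7 were among the 17990 genes with enough counts to be tested.

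The series asked how the lesioned cord changes after clip compression and after grafting of mesenchymal stem cells from human umbilical cord (hUC-MSCs). All animals were wild type female Sprague-Dawley rats of 250 g, given in the labels as postnatal day 70, and each of the 26 poly(A) libraries came from a 5 mm segment of cord. Intact (n = 4) comprised comparable segments of intact or sham rats without a clip injury. The other groups were compressed at T10 for 1 min with a 60 g clip: sub-SCI (n = 3) was collected 7 days later, when grafts were given, +PBS-1w (n = 3), +PBS-2w (n = 2) and +PBS-4w (n = 4) were collected 1, 2 and 4 weeks after intrathecal vehicle, and +MSC-1w (n = 3), +MSC-2w (n = 3) and +MSC-4w (n = 4) at the same times after intrathecal hUC-MSCs. The study's methods give daily cyclosporin A, an immunosuppressant, for the transplantation experiment, vehicle rats included. They do not say whether Intact rats received it, and sub-SCI and later groups therefore differ from Intact in the injury and possibly in the drug, which cannot be told apart here.

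Cholesterol is built in the cytosol and endoplasmic reticulum from acetyl-CoA through mevalonate, isoprenoids, squalene and lanosterol. When membrane sterol is low, SCAP carries the transcription factor SREBP2 out of the endoplasmic reticulum to be cut and released, and genes of the whole pathway are transcribed together. When sterol is plentiful, INSIG1 holds SCAP and SREBP2 back, and INSIG1 is itself a target of SREBP2. The adult cord imports little cholesterol from blood. Oligodendrocytes use large amounts for myelin and astrocytes supply neurons with cholesterol on lipoproteins, whereas phagocytes that clear myelin debris have to export or store it.

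Promoters of this pathway are known to share elements, so the 300 bases around each annotated start (250 before to 50 after, RefSeq, build GRCr8) were searched on both strands for the inverted CCAAT box (CCAAT or its complement ATTGG), bound by NF-Y, a partner of SREBP2. A promoter was present for 5 of the 7 genes (Hmgcs1, Idi1, Cyp51, Dhcr7 and Insig1). The CCAAT letters occurred in 3 of these 5, in 11 of 12 other enzymes of the pathway with a promoter and in 37.5% of all 33469 promoters. The stretches holding them in the 3 members are shown 5′ to 3′ on the gene's strand, with the matches in capitals. They lie at chr2:53382094-53382193 (plus strand, 210 to 111 bases before the start of Hmgcs1), chr17:66547535-66547614 (minus strand, 90 to 11 bases before that of Idi1) and chr4:8057830-8057984 (minus strand, 215 to 61 bases before that of Insig1) in GRCr8.
Hmgcs1: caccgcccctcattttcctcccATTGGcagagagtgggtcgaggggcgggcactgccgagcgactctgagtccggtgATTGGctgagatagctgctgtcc
Idi1: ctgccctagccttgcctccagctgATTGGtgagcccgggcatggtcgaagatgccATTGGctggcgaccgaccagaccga
Insig1: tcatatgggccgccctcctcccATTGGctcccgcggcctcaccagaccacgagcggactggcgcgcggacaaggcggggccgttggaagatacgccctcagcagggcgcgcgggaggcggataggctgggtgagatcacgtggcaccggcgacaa

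Hmgcs1 and Idi1 each held 2 such matches and Insig1 held 1, all of them in the ATTGG orientation. The GC box letters GGGCGG, a site for Sp1, occurred in 4 of the 5 member promoters, in 11 of the 12 other enzymes and in 33.1% of all promoters. A sterol regulatory element written strictly as TCACNCCAC was in none of the 5 or the 12, and in 1.12% of all promoters. The E-box CACGTG was present in Insig1 alone among the 5 (6.42% of all promoters), and TATAAA in Hmgcs1 alone (14.2%). These are counts of letters in a fixed window.

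Total counts per library ran from 19496602 to 43468509, and the lowest count of any member in any library was 314, for Idi1. Levels are given as CPM (counts scaled to a common library size) corrected by edgeR's normalization factors. The +MSC-2w libraries 2 and 3 were the closest of 31 pairs within a group (chi-square per degree of freedom 5.94, against 13.91 for the next pair). The study's methods give 2 repeats for this group where the labels give 3, and its results text also speaks of 3 +MSC-2w samples. By the same methods +PBS-2w has 3 repeats, where the labels give 2. In +PBS-4w, library 1 stood far from the other 3 (up to 262.16). All marker lists of central cord cells were detected, with 2 exceptions among the 6 endothelial markers, which left 4 tested. Pecam1 had no row under that name, and Cldn5 was at 0 in all 26 libraries. Neuron markers summed to 8454 to 10365 CPM in Intact and to 398 to 1869 in sub-SCI. Microglia and macrophage markers summed to 316 to 653 CPM in Intact and to 1856 or more in every injured library.

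In the intact cord the genes near the start of the pathway were not uniformly the more abundant. Per kilobase of gene length, the mean Intact level was highest for Hmgcs1 at 281 CPM per kb and then fell to 165 for Cyp51, 104 for Insig1, 77.8 for Sqle, 75.3 for Fdft1, 31.4 for Idi1 and 24.1 for Dhcr7. In +PBS-1w the same quantity was 28.0 for Hmgcs1, 30.4 for Cyp51 and 7.77 for Dhcr7. The lead of Hmgcs1 over Cyp51 seen in Intact was thus absent there, with overlapping libraries (24.2 to 35.5 against 22.9 to 38.7). Injured groups differed in this respect. Cyp51 was higher in each sub-SCI library (71.7, 35.7 and 42.9 against 57.8, 29.3 and 30.8). Hmgcs1 was higher in each +MSC-1w library (51.7, 48.4 and 39.7 against 40.0, 41.1 and 36.8).

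**Figure D1:**
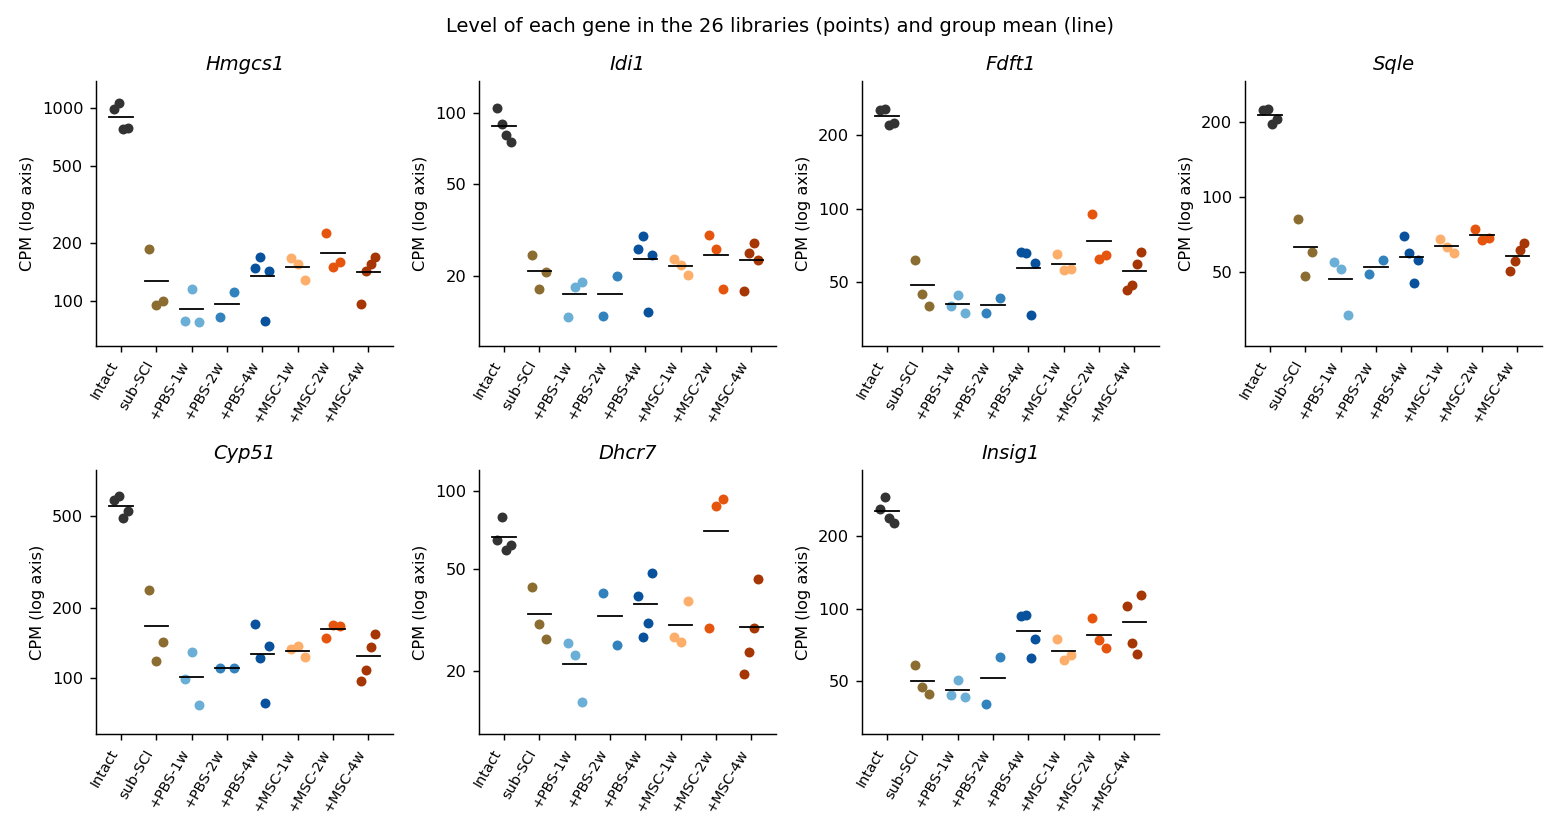
CPM of each gene (log axis) in the 26 libraries by group, with a point for each library and a line at the group mean. For every gene but Dhcr7 the 4 Intact points lie above all 22 injured ones; for Dhcr7, 2 of the 3 +MSC-2w libraries exceed the Intact range.

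Transcripts of the whole set were lower in the injured cord than in Intact. Hmgcs1, which condenses acetyl-CoA and acetoacetyl-CoA to HMG-CoA, was the most reduced. Its level was 987, 1065, 782 and 787 CPM in the 4 Intact libraries and 186, 94.5 and 99.1 CPM in the 3 sub-SCI libraries. The ranges were far apart, and the fitted sub-SCI level was 7.15-fold lower (log2 fold change -2.84 ± 0.29 SE, adjusted p = 4.01e-08). At +PBS-1w, where it measured 78.2, 114 and 77.9 CPM, the log2 fold change from Intact was -3.33 ± 0.30. No injured group recovered beyond 19.6% of the Intact mean.

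Idi1, which isomerises isopentenyl diphosphate so that longer isoprenoids can be assembled, measured 106, 90.2, 81.1 and 75.5 CPM in Intact and 24.7, 17.7 and 21.0 CPM in sub-SCI. Those ranges did not overlap, and the log2 fold change was -2.06 ± 0.24 (adjusted p = 2.25e-07). Idi1 overlaps the annotated gene Wdr37 in GRCr8, and Hmgcs1, Fdft1 and Insig1 each overlap a long noncoding RNA, so without a stated strand setting a part of their reads cannot be assigned with certainty.

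Fdft1 (squalene synthase) and Sqle (squalene epoxidase) make the first committed sterol intermediates. Fdft1 stood at 254, 255, 219 and 224 CPM in Intact against 61.9, 44.7 and 39.9 CPM in sub-SCI, a 4.87-fold difference (log2 -2.28 ± 0.20, adjusted p = 5.76e-09). Sqle stood at 223, 224, 195 and 206 CPM in Intact against 81.3, 48.2 and 60.0 CPM in sub-SCI (log2 -1.75 ± 0.18, adjusted p = 2.97e-08). Neither gene had an injured library inside its Intact range, at any time or with either treatment.

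Cyp51 removes the 14-alpha methyl group of lanosterol. It measured 585, 606, 490.5 and 522 CPM in Intact and 239, 119 and 143 CPM in sub-SCI, with no overlap (log2 -1.72 ± 0.24, adjusted p = 3.28e-06). Its fold change was larger at +PBS-1w, where the libraries read 99.2, 129 and 76.5 CPM (log2 -2.44 ± 0.25). Insig1, the sterol-dependent anchor, measured 258, 289, 237 and 226 CPM in Intact and 58.8, 47.3 and 44.5 CPM in sub-SCI (log2 -2.33 ± 0.21, adjusted p = 5.06e-09). No injured library of either gene reached its Intact range.

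Dhcr7, the reductase of the last step that turns 7-dehydrocholesterol into cholesterol, changed least. It was 64.8, 79.3, 58.9 and 61.8 CPM in Intact and 42.5, 30.6 and 26.7 CPM in sub-SCI, 1.99-fold lower (log2 -0.99 ± 0.34, adjusted p = 0.014). The groups did not overlap, but this call was lost without Intact library 2 (log2 -0.83, adjusted p = 0.0529) or sub-SCI library 3 (log2 -0.86, adjusted p = 0.0672).

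All 7 genes passed as lower than Intact at sub-SCI, +PBS-1w, +PBS-2w and +PBS-4w (edgeR quasi-likelihood test, Benjamini-Hochberg adjusted p under 0.05 over all genes). The shares of all tested genes called lower in these comparisons were 30.9%, 26.4%, 17% and 23.9%. All 7 also lay wholly below the Intact range in each of them, as did 34%, 30.5%, 31.3% and 21.3% of all genes. By the stricter criterion of a log2 change beyond 1 with adjusted p under 0.01, 6, 7, 6 and 6 of the 7 were lower (Dhcr7 missed it except at +PBS-1w), against 17.5%, 12.5%, 5.66% and 10.7% of all genes. The median log2 fold change of the 7 was -2.06, -2.44, -2.31 and -1.89, beside -0.02, -0.01, 0.00 and 0.05 over all genes tested. These comparisons share the 4 Intact libraries. For the 6 genes other than Dhcr7 the call against Intact held in all 1470 refits under 35 alternative settings and 7 injured groups. For Dhcr7 it was weaker: at +PBS-2w (log2 -1.01, adjusted p = 0.0455) it was lost in 12 of 26 fits that left out 1 library, namely each that dropped an Intact or a +PBS-2w library (adjusted p up to 0.304) and those without sub-SCI library 2, +PBS-1w library 2, +PBS-4w library 1, +MSC-1w library 1 or 2, or +MSC-4w library 3. At +PBS-4w (log2 -0.86, adjusted p = 0.0216) it was lost without Intact library 2 or +PBS-4w library 2 or 3 (adjusted p up to 0.0812).

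**Figure D2:**
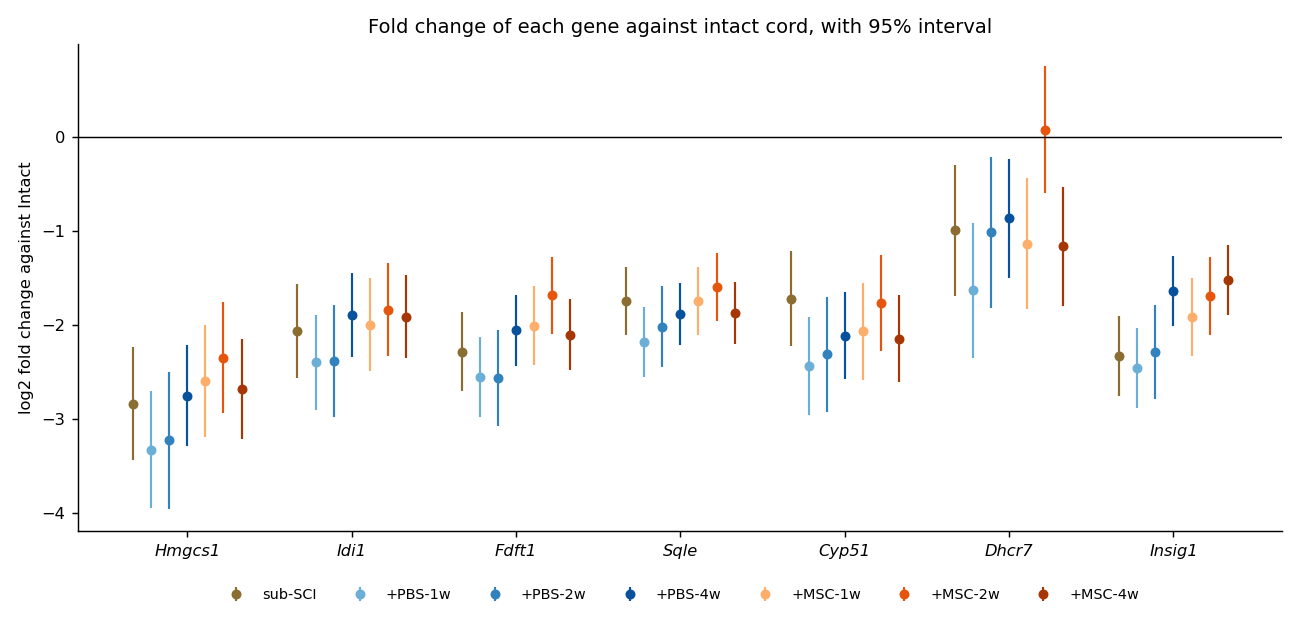
Log2 fold change of each gene against Intact (vertical axis) in the 7 injured groups, as points with 95% intervals. Hmgcs1 has the lowest values, down to -3.33 at +PBS-1w, and Dhcr7 at +MSC-2w is the only point at or above 0 (0.08).

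The remaining enzymes of the pathway moved the same way. Of 15 on the list, 14 were in the table and tested. At sub-SCI 13 were lower and at each +PBS time 14, where 30.9%, 26.4%, 17% and 23.9% of all genes were called lower. The median log2 fold changes of the 14 were -1.79, -1.97, -1.87 and -1.79. Acat2, which supplies the acetoacetyl-CoA that Hmgcs1 uses, changed by -2.22. Sc5d, the desaturase that makes the substrate of Dhcr7, changed by -2.26, against -0.99 for Dhcr7 itself. Ebp, the sterol isomerase, did not pass at sub-SCI (-0.09) and changed by -0.37 at +PBS-4w.

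**Figure D3:**
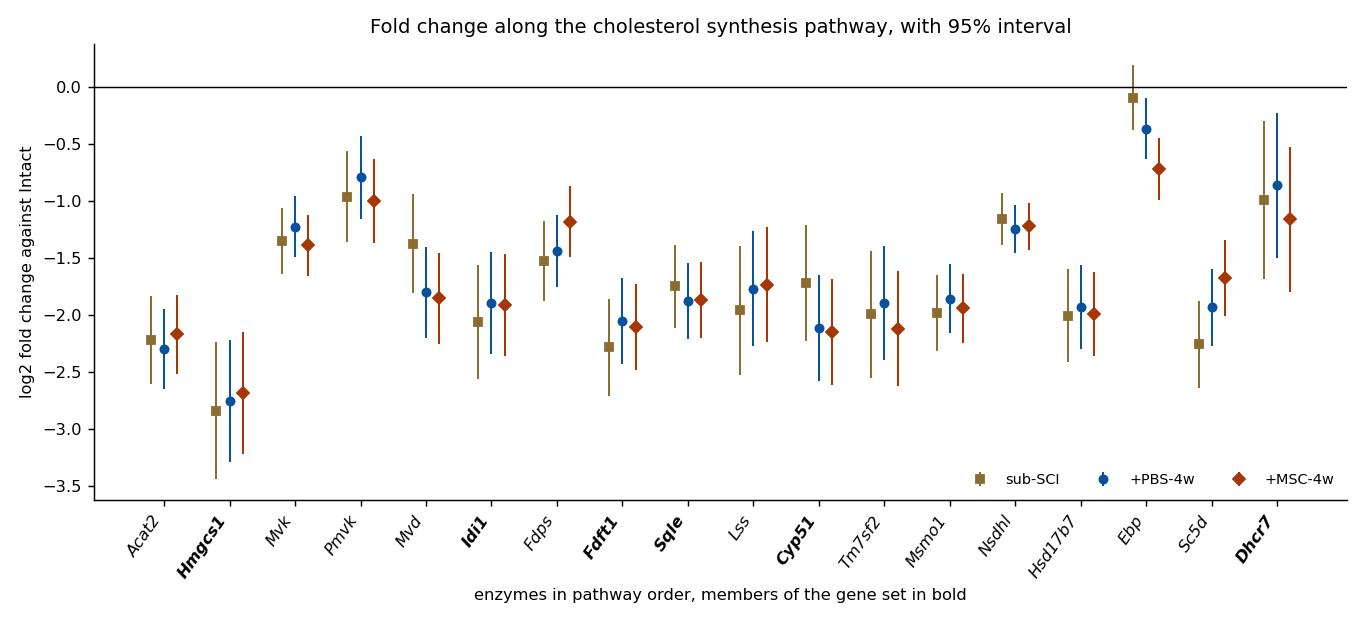
Log2 fold change against Intact (vertical axis, points with 95% intervals) of enzymes in pathway order at sub-SCI, +PBS-4w and +MSC-4w, with the 6 member enzymes in bold. Hmgcs1 is the lowest at sub-SCI (-2.84) and Ebp the nearest to 0 (-0.09); at +PBS-4w Ebp (-0.37), Pmvk (-0.79) and Dhcr7 (-0.86) are nearest to 0.

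Among 10 regulators of sterol supply, 3 were higher and 6 lower at sub-SCI, where 30.5% of all genes were higher and 30.9% lower, so the 3 are near the background share. Srebf2, encoding SREBP2, changed by -1.27 at sub-SCI, -1.29 at +PBS-1w, -1.03 at +PBS-2w and -0.83 at +PBS-4w, and passed each time. Stard4, a carrier of sterol between membranes, changed by -1.20 at sub-SCI and -1.32 at +PBS-4w. Mylip, a ubiquitin ligase induced by sterols, rose (2.05 at +PBS-1w, 1.67 at +PBS-4w). Srebf1, whose product drives fatty acid synthesis, rose as well, from 0.47 at sub-SCI to 1.69 at +PBS-4w. The genes for the transport and cleavage of SREBP moved little: Scap changed by -0.48 at sub-SCI, Mbtps1 by 0.35 and Insig2 by -0.25, and Mbtps2 did not pass (-0.05).

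Genes of fatty acid synthesis, another lipid pathway of myelin, were lower for 7 of 7 tested at sub-SCI, +PBS-1w and +PBS-4w and for 5 of 7 at +PBS-2w. The shares of all genes called lower were 30.9% at sub-SCI, 26.4% at +PBS-1w, 17% at +PBS-2w and 23.9% at +PBS-4w. Scd, a desaturase, fell most, with log2 changes of -2.26 at sub-SCI and -3.35 at +PBS-2w. Genes of sterol export and storage went the other way: 8 of 10 were higher and 1 was lower at sub-SCI and at each +PBS time, where 30.5%, 26.7%, 19.7% and 28.6% of all genes were called higher. Abca1, a cholesterol efflux pump, rose by 3.54 on the log2 scale at sub-SCI, Apoe, the lipoprotein component, by 3.32, and Soat1, which esterifies cholesterol for storage, by 2.87. The gene that was lower, Cyp46a1 (-1.87), encodes the neuronal cholesterol 24-hydroxylase.

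Markers of oligodendrocytes were lower for the most part: 11 of 12 passed as lower at sub-SCI, 8 at +PBS-1w, 6 at +PBS-2w and 9 at +PBS-4w, where 1 was higher. Of all genes, 30.9%, 26.4%, 17% and 23.9% were called lower in the same comparisons. The 12 oligodendrocyte markers, of which Mbp is the most abundant, summed to 52568 to 59471 CPM in Intact, 18065 to 36754 in sub-SCI and 18070 to 29729 in +PBS-4w, and their median log2 fold change was -1.24 at sub-SCI and -1.03 at +PBS-4w. The 7 genes together summed to 2064 to 2609 CPM in Intact and 303 to 695 CPM in all injured libraries. Per 100 CPM of oligodendrocyte markers this is 3.53 to 4.51 CPM in Intact and 1.27 to 3.13 in the injured cord, so all 22 injured libraries lay below the lowest Intact one also on this scale. In bulk tissue fewer cells of a type and less RNA per cell cannot be told apart, and the part of cell loss and of incoming phagocytes in the change was not tested.

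**Figure D4:**
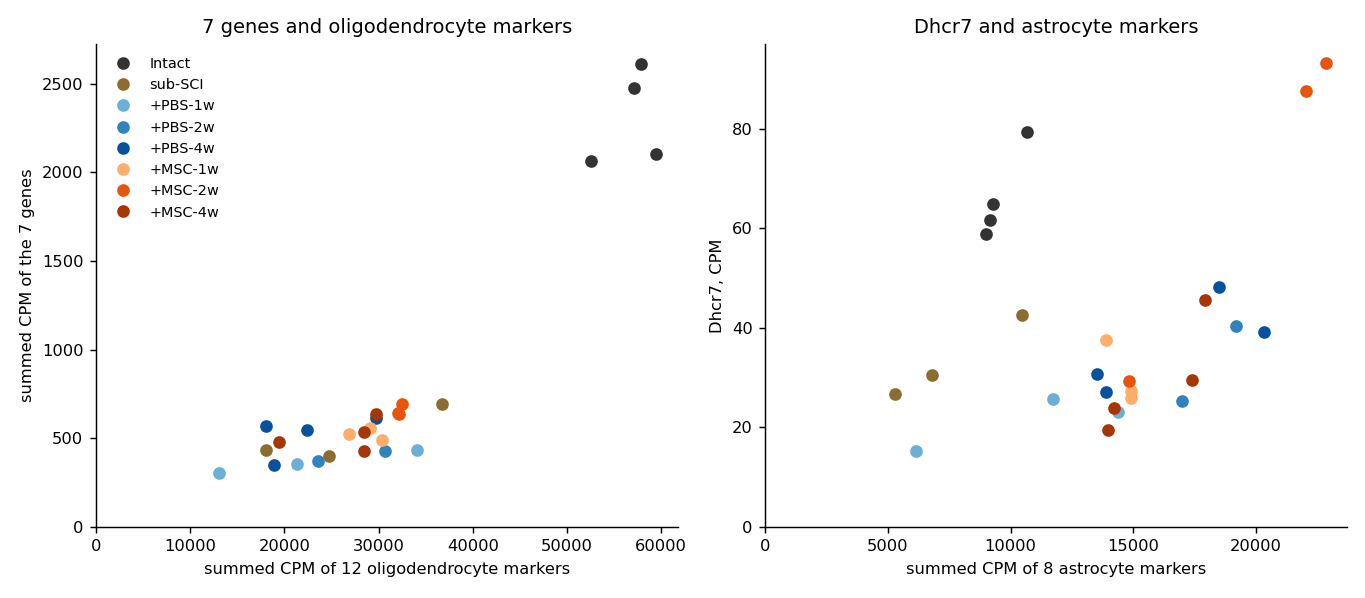
Left, summed CPM of the 7 genes against the summed CPM of 12 oligodendrocyte markers in 26 libraries coloured by group; right, Dhcr7 CPM against the summed CPM of 8 astrocyte markers. On the left the Intact libraries (2064 to 2609 CPM of the 7 genes) stand apart from the injured ones (303 to 695); on the right the 2 +MSC-2w libraries highest in Dhcr7 are also the highest in astrocyte markers.

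Between sub-SCI and +PBS-4w, Insig1 was the only member that passed, at 93.0, 93.8, 62.5 and 74.8 CPM in +PBS-4w against 58.8, 47.3 and 44.5 CPM in sub-SCI (log2 0.69 ± 0.19, adjusted p = 0.0119). The 2 groups did not overlap for Insig1, and 12.5% of all genes likewise lay wholly higher in +PBS-4w. The share of all genes called higher in this comparison was 13.4%, and the call was lost when only these 2 groups were fitted or when sub-SCI library 3 was left out. The other 6 members had log2 values between -0.39 (Cyp51) and 0.23 (Fdft1). With the injured groups of each gene placed in order of their means, neighbours overlapped in 40 of 41 cases, the exception being Cyp51 in +MSC-2w against +MSC-1w. Neighbours in such an order are the closest groups, so this says nothing of groups farther apart.

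Graft and vehicle were compared at each week. At 1 week all 7 members had higher values in +MSC-1w than in +PBS-1w, by 0.37 (Cyp51) to 0.73 (Hmgcs1) on the log2 scale, and at 2 weeks by 0.42 (Sqle) to 1.09 (Dhcr7). None passed at either week after adjustment over all genes (lowest adjusted p 0.174 and 0.172), where 0.1% and 0% of all genes passed in either direction (3219 and 2219 genes at an unadjusted p under 0.05). At an unadjusted p under 0.05 there were 4 and 5 members. DESeq2 called 0 and 1 member with all libraries in the fit, and 3 and 3 with only the 2 groups. Of the genes to which DESeq2 gave an adjusted p it called 4.66% and 1.19% with all libraries, and 9.26% and 7.55% with 2 groups. At 4 weeks 3 members were higher and 4 lower, between -0.30 (Dhcr7) and 0.12 (Insig1), and none passed by edgeR or DESeq2 or at an unadjusted p under 0.05, while 4% of all genes did by edgeR.

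The values behind these differences were small beside the difference from Intact. Hmgcs1 measured 166, 156 and 128 CPM in +MSC-1w against 78.2, 114 and 77.9 CPM in +PBS-1w. At 2 weeks it measured 226, 149 and 159 CPM in +MSC-2w against 82.2 and 111 CPM in +PBS-2w. At 4 weeks it measured 96.2, 143, 156 and 168 CPM in +MSC-4w against 147, 168, 78.0 and 142 CPM in +PBS-4w. Every graft library was above every vehicle library at 1 and 2 weeks, and the groups overlapped at 4 weeks.

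Fdft1 showed the same order, with 65.0, 55.9 and 56.8 CPM against 39.8, 44.4 and 37.5 CPM at 1 week. The week 2 libraries held 94.8, 62.3 and 64.8 CPM with graft and 37.3 and 43.1 CPM with vehicle. Graft and vehicle separated at both times. At 4 weeks the graft libraries held 46.7, 48.7, 59.5 and 66.6 CPM and the vehicle libraries 66.6, 65.7, 36.7 and 59.8 CPM, which overlapped. Insig1 measured 74.95, 61.3 and 64.4 CPM in +MSC-1w and 44.1, 50.6 and 43.1 CPM in +PBS-1w, and 91.3, 73.9 and 68.9 CPM in +MSC-2w against 40.3 and 62.9 CPM in +PBS-2w. These too were separate at both times.

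Sqle was 67.6, 62.8 and 59.7 CPM with graft against 54.8, 51.4 and 33.7 CPM with vehicle at 1 week. At 2 weeks it was 74.4, 67.3 and 68.3 CPM against 49.0 and 55.7 CPM. The graft libraries were again the higher ones, by a smaller margin than for Hmgcs1. Cyp51 overlapped at 1 week (133, 137 and 123 CPM with graft, 99.2, 129 and 76.5 CPM with vehicle), and Idi1 overlapped at 2 weeks (30.1, 26.2 and 17.7 CPM with graft, 13.6 and 20.2 CPM with vehicle). Counted over the set, graft libraries lay wholly above vehicle libraries for 6 of 7 members at 1 week (all but Cyp51), 5 of 7 at 2 weeks (all but Idi1 and Dhcr7) and 0 of 7 at 4 weeks. The same held for 15.3%, 18.6% and 6.08% of all genes.

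Averaged over the 3 weeks with equal weight, 4 of 7 members passed as higher with graft, where 12.3% of all genes did. These were Hmgcs1 (log2 0.56 ± 0.16, adjusted p = 0.0176), Fdft1 (0.46 ± 0.12, adjusted p = 0.00876), Insig1 (0.42 ± 0.12, adjusted p = 0.0148) and Sqle (0.29 ± 0.10, adjusted p = 0.0472). Dhcr7 (0.43), Idi1 (0.31) and Cyp51 (0.30) did not pass, although Dhcr7 did when +MSC-2w library 1 was left out (0.55, adjusted p = 0.0289). The calls depended on +PBS-2w library 1: without it, which leaves 1 +PBS-2w library, no member passed (lowest adjusted p 0.062, for Fdft1). Fdft1, Hmgcs1 and Insig1 passed in 25 of 26 fits that left out 1 library, and Sqle in 6 of 26. With the 2 closest +MSC-2w libraries counted as 1, the former 3 still passed and Sqle did not (adjusted p = 0.0596). With all libraries numbered 1 dropped, which also leaves 1 +PBS-2w library, the 4 calls were not kept. No member differed between weeks in its response to graft (lowest adjusted p 0.999 over 21 tests, 0% of all genes, and also 0 members by DESeq2); 3 of these tests had an unadjusted p under 0.05, the lowest being 0.00415 for Fdft1 between weeks 2 and 4 (difference of log2 changes -0.93 ± 0.29).

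Of the 14 other enzymes, 4 passed as higher in the averaged comparison, among them Acat2 (0.51), Fdps (0.44) and Sc5d (0.44). Mylip fell with graft (-0.59). Of the export and storage genes, 6 of 10 were lower with graft, among them Apoe (-0.70) and Abca1 (-0.66), where 10.9% of all genes were lower, and Cyp46a1 was higher (0.58). Cell markers moved along the same comparison: 8 of 8 neuron markers were higher (median 1.05), 6 of 6 fibroblast and 4 of 8 microglia and macrophage markers were lower (medians -1.29 and -0.44), and 1 of 12 oligodendrocyte markers was higher (median 0.27), a share below the 12.3% of all genes. Of the other lists, 2 of 8 astrocyte markers were higher, 1 of 4 endothelial markers was lower and 0 of 5 Schwann cell markers passed. The part of these cell types in the difference was not tested.

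**Figure D5:**
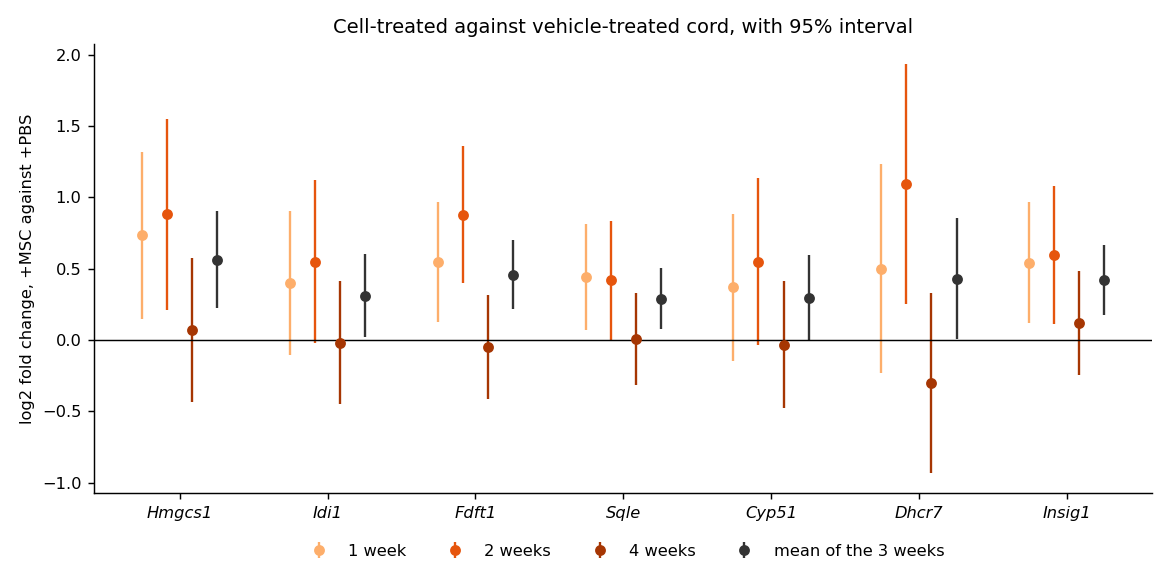
Log2 fold change of graft against vehicle (vertical axis) for each gene at 1, 2 and 4 weeks and for the mean of the 3 weeks, as points with 95% intervals from the fit of all libraries. All 7 points at 1 and 2 weeks lie above 0, and those at 4 weeks lie between -0.30 and 0.12.

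With graft the set nevertheless remained below Intact. At +MSC-1w, +MSC-2w and +MSC-4w, 7, 6 and 7 of 7 members passed as lower, against 14.8%, 6.44% and 13.6% of all genes. The same numbers of members lay wholly below the Intact range, against 25.5%, 21.3% and 20.4% of all genes. At +MSC-1w the Dhcr7 call (log2 -1.13) was lost without +MSC-1w library 1 or 2 (adjusted p up to 0.0619). As a share of the Intact mean, Hmgcs1 stood at 16.6%, 19.6% and 15.6%, Fdft1 at 24.9%, 31.1% and 23.3%, and Insig1 at 26.5%, 30.9% and 35.0%. Among the fold changes of the 17990 genes ranked from the lowest, Hmgcs1 was 38th, 96th and 17th, Cyp51 89th, 227th and 35th, and Fdft1 101st, 253rd and 43rd. All 14 other tested enzymes were lower than Intact at each of the 3 times, with median log2 changes of -1.72, -1.46 and -1.68.

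Dhcr7 was the member without a fall at +MSC-2w (log2 0.08 ± 0.33, adjusted p = 0.889). Its 3 libraries there read 29.3, 87.7 and 93.2 CPM, the last 2 above all 4 Intact libraries and the first below them. Astrocyte markers summed to 14836, 22033 and 22856 CPM in the same 3 libraries, against 8980 to 10660 in Intact. Gfap is the most abundant gene of this sum (3680 to 16154 CPM over the 26 libraries, next Aqp4 with 431 to 3154). Of the 8 astrocyte markers, 3 passed as higher than Intact at +MSC-2w and 5 did not pass (median log2 0.36). Of all genes, 12.7% were called higher there. The 2 libraries high in Dhcr7 are the closest pair described above, and with that pair counted as 1 library the Dhcr7 log2 value was -0.14. Dhcr7 in the other graft libraries was 27.3, 25.9 and 37.5 CPM at 1 week and 19.5, 23.8, 29.4 and 45.5 CPM at 4 weeks. In the vehicle groups it was 25.7, 23.1 and 15.2 CPM at 1 week, 40.3 and 25.4 CPM at 2 weeks, and 39.3, 27.2, 30.8 and 48.3 CPM at 4 weeks. None of these reached the Intact range.

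Within groups the enzymes moved together from library to library, apart from Dhcr7. After subtraction of group means, Pearson's r over 26 libraries was 0.42 to 0.91 (median 0.73) among the 15 pairs of the other 6 members, with the highest value between Hmgcs1 and Fdft1. The 6 pairs that include Dhcr7 gave -0.19 to 0.54 (median 0.07). Dhcr7 deviated widely in +MSC-2w, by -1.08, 0.50 and 0.58 on the log2 scale in libraries 1, 2 and 3, of which the last 2 are the closest pair. How far the r values of Dhcr7 rest on that group was not tested. Dhcr7 followed the astrocyte marker sum, in which Gfap is the most abundant gene, more closely (r = 0.74 within groups) than the oligodendrocyte sum (0.37). Cyp51 followed both (0.79 and 0.70), and Idi1 neither (0.03 and 0.12). With the microglia and macrophage sum, r was -0.58 for Idi1, -0.54 for Insig1, -0.52 for Fdft1 and -0.51 for Hmgcs1, and 0.36 for Dhcr7. These values share library depth and tissue composition and are given as description. All 7 members lay on the same side of their group mean in 9 of 26 libraries, above it in 5 and below it in 4. The mean deviation was greatest in +PBS-4w library 3 (-0.51 on the log2 scale), sub-SCI library 1 (0.40) and +MSC-4w library 4 (0.31).

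Among the 10 genes outside the set whose log2 CPM most resembled its mean across the 26 libraries were Msmo1 (r = 0.99, and 0.82 after subtraction of group means), Acat2 (0.97 and 0.65), Sc5d (0.97 and 0.82), Acss2 (0.96 and 0.78), Nsdhl (0.96 and 0.64), Aacs (0.96 and 0.77), Mvk (0.96 and 0.52), Hsd17b7 (0.96 and 0.54) and Fa2h (0.96 and 0.73). Of these, Msmo1, Acat2, Sc5d, Nsdhl, Mvk and Hsd17b7 encode enzymes of the pathway, Acss2 and Aacs activate acetate and acetoacetate, and Fa2h hydroxylates fatty acids of myelin lipids. In the same ranking of all 17990 genes Srebf2 was 18th, Insig1 20th and Dhcr7 1195th. Insig1 and Dhcr7 are part of the mean they are ranked against, which raises their r, and Srebf2 is not.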

How the data were processed

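Poly(A) RNA libraries of rat cord (26, in 8 groups) were analysed from the deposited table of raw counts per gene. To make these counts, the authors trimmed reads (Trim Galore 0.5.0), aligned them with HISAT2 2.1.0 to the human genome first, removed what aligned there, mapped what was left on rat build Rnor6, retained properly paired alignments (SAMtools 1.9) and assigned these to genes (featureCounts 1.6.4). Rat reads from stretches shared with human can be lost by this order. The annotation release and strand setting are not given in the sources used here. The per-library files equalled the joint table in 26 of 26 cases.

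Groups followed the sample labels, which give 3 libraries for +MSC-2w and 2 for +PBS-2w. The study's methods give 2 and 3 repeats, while its results text speaks of 3 +MSC-2w samples. Genes with low counts were removed by filterByExpr, leaving 17990 of 32883. Counts were scaled by TMM and fitted for all libraries in 1 model with edgeR 4.0.16 (R 4.3.3, limma 3.58.1) by the quasi-likelihood test, with Benjamini-Hochberg adjustment over all genes and a threshold of 0.05. Standard errors are the size of the log2 fold change divided by the square root of F. The graft effect was also averaged over the 3 weeks. Log2 CPM used a prior count of 2. Nothing in the sources says how many rats a library holds, so p-values measure the spread between libraries only. Depth was 19496602 to 43468509 counts, and intervals (95%) come from the fit.

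The members, marker lists and pathway lists were chosen with earlier results of these data known. All 7 members are named, list genes where they passed or act next to a member, and the 10 other genes most correlated with the members' mean scaled log2 CPM. Some genes that this rule covers are not reported here. The scripts were tested on simulated data. Same-numbered libraries did not deviate together throughout (r from -0.164 to 0.317). For those numbered 1, r was 0.131 to 0.317 in comparisons without a week 2 group. In comparisons with a week 2 group it was -0.0781 to 0.0882. For the other numbers r was -0.164 to 0.2325. Alternatives were DESeq2 1.42.0, other scaling and filters, a replicate block, fits of 2 groups and leaving out each library. After seeing the data, 2 were added, which drop all libraries numbered 1 or sum the closest +MSC-2w pair. Tables of promoters were from RefSeq, build GRCr8, of which no coordinates were applied to the counts.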

Additional observations from a re-analysis of the deposited data

How the results depend on the processing

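Against Intact, counts of members called stayed within 1.5 times under every alternative run. For graft against vehicle, DESeq2 on the 2 groups called 3 members at 1 week and 3 at 2 weeks where edgeR called 0, and DESeq2 on all libraries called 1 at 2 weeks. Over all genes, edgeR called 18, 0 and 719 at 1, 2 and 4 weeks, DESeq2 on all libraries 734, 193 and 1647, and DESeq2 on 2 groups 1462, 1236 and 847. Averaged over weeks, 4 members were called by edgeR. When 1 library was left out, Fdft1, Hmgcs1 and Insig1 were called except without +PBS-2w library 1, and Sqle in 6 of 26 fits. Sqle was also not called by edgeR with median-of-ratios scaling (adjusted p = 0.0538), no filter (0.0777) or a minimum of 10 counts (0.0535). Dropping the libraries numbered 1 leaves 1 +PBS-2w library, and none of these 4 calls was kept. The log2 values were then 0.43 for Hmgcs1, 0.37 for Fdft1, 0.32 for Sqle, 0.24 for Insig1 and 0.81 for Dhcr7. For +PBS-4w against sub-SCI, 1 member was called, 0 with 2 groups fitted and 0 to 1 leaving out 1 library (0 without sub-SCI library 3). Of the 14 other enzymes, none was called at single weeks by edgeR. DESeq2 on all libraries called 1 at 1 week and 1 at 2 weeks, DESeq2 on 2 groups 2 and 4, and leaving out 1 library gave 0 to 1 at 1 week and 0 to 2 at 4 weeks (the higher counts without +PBS-4w library 1). Dropping the libraries numbered 1 gave 2 at 4 weeks. Averaged over weeks, 4 were called, and 2 (without +PBS-2w library 1) to 7 (without +PBS-4w library 1).

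Near 0, some signs turned. For graft against vehicle at 4 weeks, Idi1 was 0.01 with no filter, and with the libraries numbered 1 dropped Idi1 was 0.16, Fdft1 0.11 and Cyp51 0.25, while Sqle was -0.01 with a minimum of 10 counts. Leaving out 1 library gave -0.12 to 0.22 for Hmgcs1, -0.20 to 0.11 for Idi1, -0.21 to 0.03 for Fdft1, -0.09 to 0.09 for Sqle, -0.20 to 0.12 for Cyp51 and -0.02 to 0.24 for Insig1. For +PBS-4w against sub-SCI it gave -0.09 to 0.47 for Hmgcs1, -0.29 to 0.09 for Sqle and -0.04 to 0.34 for Dhcr7. Dhcr7 at +MSC-2w against Intact ran from -0.18 to 0.45, and was -0.14 with the closest pair summed. The cause was not tested.

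The replicate numbers are not a stated pairing, and same-numbered libraries deviated together in some comparisons only. With the number as a replicate block, Dhcr7 at +PBS-2w against Intact no longer passed (-0.91, adjusted p = 0.0741), so 6 members did. Under the same block, Idi1 was 0.01 for graft against vehicle at 4 weeks and Dhcr7 was -0.01 for +PBS-4w against sub-SCI. Averaged over weeks, 4 members were called with the block. In simulated counts with 200 of 17990 genes changed by 0.5 on the log2 scale, 0, 1 and 1 of them were called at 1, 2 and 4 weeks. In the average over weeks 53 were called. With a change of 2, the single weeks gave 163, 149 and 182. Effects of about 0.5 within a single week could thus hardly be called with these group sizes and depths.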
